A study of Drosophila melanogaster with 6 samples.

Results

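The genes described here build the synaptonemal complex of Drosophila melanogaster or make the breaks and crossovers of meiotic recombination. They were chosen by function around corolla, which itself was picked by its higher value in clbn knock-out embryos than in w1118 embryos. A member was measured where an array feature (a probe set) lists that gene alone, and 9 of the 10 listed genes had 1 such probe set each, out of 11982 genes on the array with a probe set of their own. The only probe set that names mei-218 names its neighbour mei-217 too, so no value is given for it. Because corolla was put on the list by the same contrast, the differences of the members between genotypes are given as a description, with their errors and no p-values, and where members past the threshold are counted, nothing is read from the count.

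The synaptonemal complex is the ladder-like structure that holds paired homologous chromosomes together along their length in meiotic prophase. In the fly it forms in the ovary, its transverse filaments span a central region between 2 lateral elements, and it is needed for crossing over. Fly males undergo meiosis without recombination, and the primordial germ cells of the embryo are not yet in meiosis. Eggs are laid with a store of RNA made in the ovary, so that early embryos can hold transcripts of genes that act there.

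The study set whole embryos of 2 genotypes side by side, w1118 (labelled wild type, the white-eyed laboratory stock) and a knock-out of clbn, the fly homologue of human NEMF, whose product acts on stalled ribosomes. The labels give w1118 as the strain background of both, a collection of embryos from 0 to 24 h and flies kept at 25 °C, and name neither the deleted part of clbn nor any backcross. Biotinylated cRNA of each sample went on 1 Affymetrix array, 3 per genotype, and nothing says that the 3 came from separate collections, so all errors and p-values cover only how far these samples differ among themselves, which may be technical. A 24 h collection of whole embryos mixes stages and tissues: fewer cells of a type and less RNA per cell cannot be told apart.

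All values are log2 expression values of the authors' deposited table. Array medians lay between 6.17 and 6.36 and first quartiles between 4.28 and 4.36, and no detection calls were used, so whether a value near the first quartile is above background is not known. The probe set of clbn checked the genotypes: its w1118 value was 8.19 ± 0.30 and its knock-out value 5.28 ± 0.14 (SD, n = 3 per genotype), without overlap. Of 30 embryo marker genes 20 were measured, each at a mean above 5, among them the segmentation genes eve and ftz. Of 28 measured markers of egg shell, yolk, testis and male accessory gland, 8 had a mean above 5, and the egg shell gene Cp38 had the highest, with 6.21 for w1118 embryos and 6.09 for knock-out embryos. Knock-out array 1 stood apart in RNA quality, with a 3′ minus 5′ difference of control probe sets of 1.24 log2 against 0.667 to 0.779 on the other arrays.

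Of the proteins of the central region, corolla was the member with the large difference. Corolla encodes a coiled-coil protein of the central region that binds Cona. The corolla probe set read 6.52, 6.42 and 6.51 on w1118 arrays 1, 2 and 3, and 8.47, 8.21 and 8.46 on knock-out arrays 1, 2 and 3. Every knock-out array was above every w1118 array, and the gap between the highest w1118 and the lowest knock-out value was 1.68 log2, while the pooled SD of the replicates was 0.11. The mean was 6.48 ± 0.06 in w1118 embryos and 8.38 ± 0.15 in knock-out embryos (SD, n = 3 per genotype). This is a difference of 1.90 log2 (SE 0.09), or 3.73-fold, at rank 13 of all 18769 probe sets ordered from the most positive difference down. The difference was nearly the same within each numbered pair of arrays, at 1.95, 1.79 and 1.96, and it was 1.85 without knock-out array 1.

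The partner gene cona encodes another central region protein, which joins the transverse filaments into a full complex. The cona probe set read 4.28, 4.42 and 4.43 in w1118 and 4.36, 4.45 and 4.42 in the knock-out. The genotypes overlapped, with the lowest value on w1118 array 1 and the highest on knock-out array 2, and the log2 difference was 0.03 (SE 0.08, 95% interval −0.14 to 0.21). The values of cona, ord, mei-P22 and sunn all lay between 4.21 and 4.59, close to the arrays' first quartiles, and whether these probe sets were above background is not known.

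The gene c(3)G encodes the transverse filament protein, the counterpart of yeast Zip1 and mammalian SYCP1. Its probe set read 8.27, 8.33 and 8.06 in w1118 and 8.86, 8.65 and 8.76 in the knock-out. Again no knock-out array fell into the w1118 range, but the gap was small, 0.32 log2 against a pooled replicate SD of 0.13. The log2 difference was 0.54 (SE 0.10), or 1.45-fold, with 0.59, 0.32 and 0.70 in the numbered pairs and 0.48 without knock-out array 1. The name of this probe set marks it as one that can match more than 1 transcript, although the annotation names c(3)G alone.

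**Figure D1:**
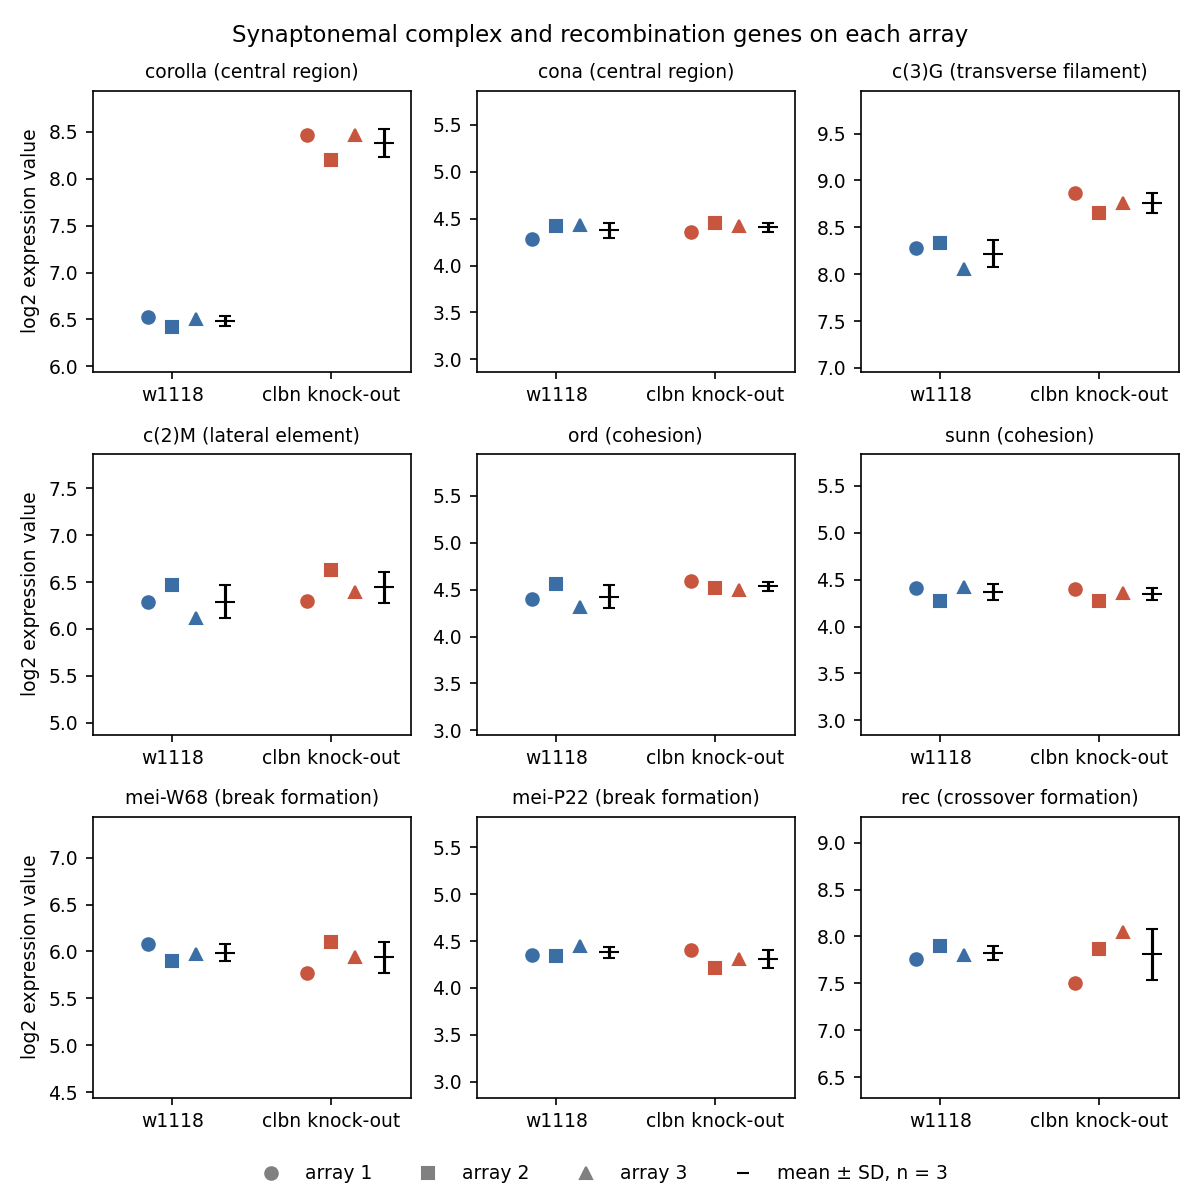
Log2 expression value of the 9 measured members on each of the 6 arrays, with blue for w1118, red for the knock-out, a shape for each array number and bars for the mean ± SD (n = 3); each panel spans the same height but its own range of values. The knock-out arrays of corolla (8.21 to 8.47) and of c(3)G (8.65 to 8.86) lie above those of w1118, and the other 7 panels overlap.

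The axis and cohesion genes did not separate by genotype. The lateral element protein encoded by c(2)M belongs to the kleisin family of cohesin-like subunits, and its probe set read 6.29, 6.47 and 6.12 in w1118 and 6.30, 6.63 and 6.39 in the knock-out. The highest value was that of knock-out array 2 and the lowest that of w1118 array 3, with the others mixed, and the log2 difference was 0.15 (SE 0.12, 95% interval −0.13 to 0.43). Within the numbered pairs the c(2)M differences were 0.01, 0.16 and 0.28. The gene ord encodes a protein that keeps sister chromatids together in meiosis of both sexes, and its values were 4.40, 4.56 and 4.31 in w1118 and 4.59, 4.52 and 4.50 in the knock-out. They overlapped on w1118 array 2 (log2 difference 0.11, SE 0.08, 95% interval −0.08 to 0.31). The gene sunn encodes a stromalin-related cohesion protein, which read 4.41, 4.27 and 4.42 in w1118 and 4.41, 4.28 and 4.36 in the knock-out (log2 difference −0.02, SE 0.08, 95% interval −0.20 to 0.16). Both cohesion genes lay near the first quartile on all arrays.

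The genes that make double-strand breaks overlapped as well. The product of mei-W68 is the fly Spo11, the enzyme that cuts DNA to start recombination. Its probe set read 6.08, 5.90 and 5.97 in w1118 and 5.77, 6.11 and 5.94 in the knock-out. Knock-out arrays 1 and 2 held both the lowest and the highest of the 6 values, and the log2 difference was −0.05 (SE 0.10, 95% interval −0.28 to 0.19). The probe set of mei-P22, whose product acts with Spo11 at the break site, read 4.35, 4.34 and 4.45 in w1118 and 4.40, 4.21 and 4.30 in the knock-out, near the first quartile (log2 difference −0.07, SE 0.08, 95% interval −0.26 to 0.11).

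The product of rec, a relative of the replication helicase subunits known as MCM proteins, works with that of mei-218 to turn breaks into crossovers. Its probe set read 7.76, 7.90 and 7.80 in w1118 and 7.51, 7.86 and 8.05 in the knock-out. The knock-out arrays spread on both sides of the w1118 arrays, with an SD of 0.28 against 0.07, and its pooled replicate SD of 0.20 was the largest among the 9 members, whose median was 0.11. The log2 difference was −0.02 (SE 0.13, 95% interval −0.33 to 0.30), and 0.13 without knock-out array 1, where rec and mei-W68 had their lowest values. With each array centred on its median the differences of rec, mei-W68 and sunn changed sign, to 0.06, 0.03 and 0.05. Such centring adds the same amount to the difference of every probe set, and the median over all probe sets became 0.08 against 0.01.

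In the limma fit over all 18769 probe sets, 2 of the 9 members (corolla and c(3)G) had an adjusted p below 0.05, and none was lower, where 3.56% of all probe sets were called in either direction. The same 2 were the members whose arrays did not overlap between genotypes, which held for 24.9% of all probe sets. These counts describe the choice of members, since corolla was taken from the same contrast. The median log2 difference was 0.03 over the 9 members and 0.01 over all probe sets. Without w1118 array 1, w1118 array 3 or any single knock-out array the count was 1, corolla alone, and the log2 difference of c(3)G lay between 0.45 and 0.59.

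Corolla was also set against its partners within each array. The log2 ratio of corolla to c(3)G, taken relative to its w1118 mean, was −0.17 to 0.19 on the w1118 arrays and 1.34, 1.30 and 1.45 on the knock-out arrays. The ratio to cona was 2.01, 1.65 and 1.94 on the knock-out arrays and at most 0.13 on those of w1118. The ratio to c(2)M was 1.98, 1.39 and 1.88, against −0.24 to 0.20 in w1118. Over all 8 partners the mean ratio in the knock-out ranged from 1.36 for c(3)G to 1.97 for mei-P22. These ratios restate the values above, and for cona, ord, mei-P22 and sunn, near the first quartile, they carry mostly the difference of corolla itself and do not show that the partner's transcript stayed level.

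The 2 members that stood out lie on different chromosomes, corolla on X and c(3)G on arm 3R. Called changed were 2.03% of 1869 genes on X, 2.13% on 2L, 2.8% on 2R, 7.72% of 2344 on 3L, 6.59% of 2972 on 3R, the arm of clbn, and 13.8% of the 65 genes on chromosome 4. Besides c(3)G the third chromosome carries cona, rec, mei-P22 and sunn, all with values that overlapped, and arm 2R carries ord and mei-W68. Only 3 measured genes lie between c(3)G and rec.

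No gene beside corolla had a difference of that size. Among the 20 measured genes closest to it, 10 to the left and 10 to the right, limma called 0, and 2 had an unadjusted p under 0.05. Of all genes on X 2.03% were called, and 22.8% of all genes had an unadjusted p under 0.05. Nothing is read from these counts. The log2 differences of the 20 ran from −0.21 to 0.31 around a median of −0.01. Arrays did not overlap for 3 of the 20, and for 24.9% of all probe sets. The next gene on one side, CG8326, differed by 0.31 log2 (adjusted p = 0.0865), and CG8289, the next on the other side, by −0.06 (adjusted p = 0.772). Both are named for their place, after their values were known. Around c(3)G, a neighbourhood looked at after the values were seen, 0 of 20 were called too, where 6.59% of the genes on 3R were. Of these 20, 2 had an unadjusted p under 0.05, and the median was 0.02 with a range of −0.43 to 0.30.

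**Figure D2:**
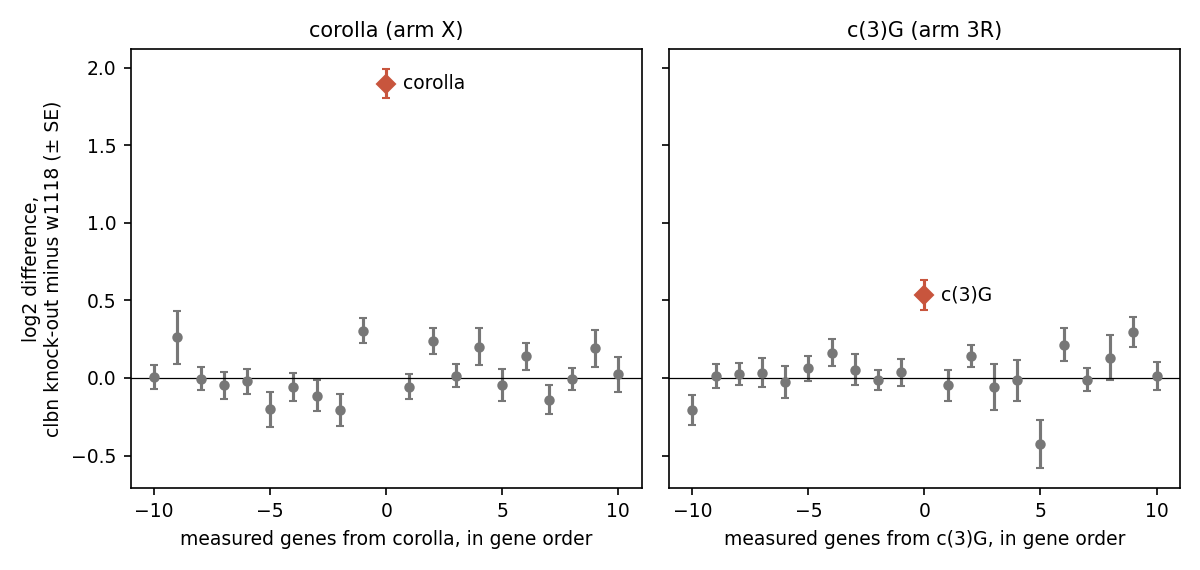
Log2 difference (knock-out minus w1118, ± SE of the limma fit) of measured genes up to 10 places left and right of corolla (left panel) and c(3)G (right panel), by gene order. The neighbours of corolla lie between −0.21 and 0.31 and corolla itself at 1.90; those of c(3)G lie between −0.43 and 0.30 and c(3)G at 0.54.

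Genes of meiosis outside the members were read from 4 lists, whose 86 measured genes the choice of corolla did not involve. The lists take in genes of cohesin, DNA repair and the spindle, which are not specific to meiosis. How much of their signal in whole embryos came from germ cells was not tested. Their counts and medians are therefore not read as a trend of meiosis. The lists were drawn up with earlier results of these data known, so their counts are a description and no test. Of the 86 genes, 1 rose and 1 fell, where 1.88% of all 11982 genes were called higher and 2.63% lower. In all 68 of 86 had values above 0, with a median log2 difference of 0.11 against 0.02 over all genes. The share of all genes above 0 was not counted, and 72 of the 86 had a mean above 5. Averaged per list, the knock-out minus w1118 difference in numbered pairs 1, 2 and 3 was 0.29, 0.004 and 0.17 for oocyte and egg meiosis. It was 0.18, −0.01 and 0.14 for cohesin and cohesion, and 0.05, −0.02 and −0.008 for male meiosis. Those of the crossover list are given further below. The gene that rose was mtrm, and the gene that fell was bol.

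Mtrm encodes Matrimony, the inhibitor of Polo kinase that helps hold the oocyte in prophase arrest. Its probe set read 7.06, 7.12 and 6.74 in w1118 and 8.86, 7.96 and 7.89 in the knock-out. Every knock-out array was above the w1118 arrays, and knock-out array 1 was the highest by far. The rise was 2.40-fold (log2 1.26, SE 0.25, limma adjusted p = 0.0374). Leaving out w1118 array 1, 2 or 3 ended the call (adjusted p = 0.127, 0.0699 and 0.132), as did leaving out knock-out array 2 (0.0643); over all its alternatives the adjusted p lay between 0.0083 and 0.132. With any 1 array left out the log2 difference of mtrm lay between 0.95 and 1.44. Calls over all probe sets fell in these fits too, from 668 to between 190 and 607. Mtrm was the single call among 26 genes of oocyte and egg meiosis, which had a median of 0.11 and 22 values above 0.

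Bol encodes Boule, an RNA-binding protein that spermatocytes need to enter the meiotic divisions. Its brightest probe set read 8.48, 8.41 and 8.54 in w1118 and 7.90, 8.05 and 8.03 in the knock-out, a 1.40-fold fall without overlap (log2 −0.49, SE 0.08, limma adjusted p = 0.0168). The other 2 probe sets of bol had values of −0.37 and −0.06 (adjusted p = 0.157 and 0.848). By their names, the brightest and the one at −0.37 can match more than 1 transcript, like that of c(3)G. The call was lost without w1118 array 1 or 3 or knock-out array 3 (adjusted p = 0.0944, 0.0781 and 0.0514; range over its alternatives 0.00426 to 0.0944). With any 1 array left out the log2 difference of this brightest probe set lay between −0.52 and −0.44. Among the 21 genes of male meiosis, where bol was the only one called, the median was 0.04 and 13 values were above 0. Only 11 of the 21 had a mean above 5.

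Crossover and recombinational repair genes had the highest median of the 4 lists, 0.20, with 21 of 25 values above 0. Limma called none of them, and 6 had an unadjusted p under 0.05, as did 22.8% of all genes. The gene nenya, which encodes a RING-finger protein related to the break-forming factor Vilya, read 6.22, 6.12 and 5.91 in w1118 and 6.79, 6.46 and 6.56 in the knock-out (log2 0.52, SE 0.12, adjusted p = 0.0546, but 0.0301 with the replicate number as a block and 0.0473 with array medians centred; range over its alternatives 0.0301 to 0.175). Msh6, a mismatch repair gene, went the other way, from 7.79, 8.42 and 7.90 to 7.34, 7.50 and 7.27 (log2 −0.67, SE 0.16, adjusted p = 0.069, and 0.0256 with the block; range 0.0256 to 0.152). Both sets of arrays were without overlap, as were those of 24.9% of all probe sets. With the block 2 genes of this list were called, 1 in each direction, and 4 of the 86 in all, 2 higher and 2 lower.

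Of the 14 cohesin and cohesion genes, whose median was 0.08, limma called 0 and 1 had an unadjusted p under 0.05. Of all genes 1.88% were called higher, 2.63% lower, and 22.8% had an unadjusted p under 0.05. Mau2, which loads cohesin on chromatin with Nipped-B, differed by 0.36 log2 (adjusted p = 0.127), and the securin gene pim by 0.19 (adjusted p = 0.387).

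**Figure D3:**
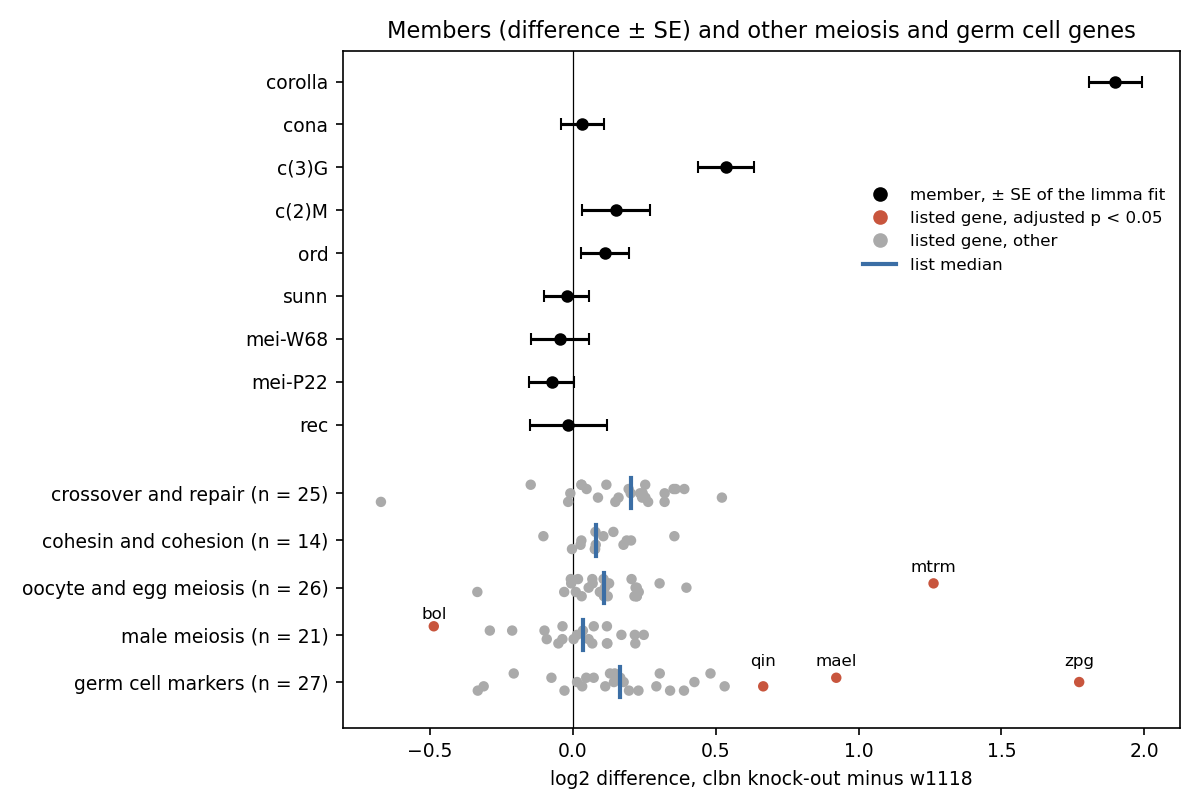
Log2 difference (knock-out minus w1118) of the 9 members (black, ± SE) and of single genes in the lists of other meiosis genes and of germ cell markers, red where the limma adjusted p was below 0.05, with a blue bar at each list's median. Corolla lies at 1.90, farther right than any listed gene; zpg (1.77) and mtrm (1.26) come next, and bol is the red point below 0.

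Of 27 measured germ cell markers 3 rose and 0 fell in the knock-out embryos, against the 1.88% and 2.63% of all genes given above. Of these 27, 22 had values above 0, with a median of 0.17, and 12 had an unadjusted p under 0.05, as did 22.8% of all genes. Their part in the values of corolla and c(3)G was not tested. The list was drawn up with earlier results of these data known, so nothing is read from its counts. The gap junction gene zpg, which germ cells use to communicate with the soma, rose 3.42-fold (log2 1.77, SE 0.27, adjusted p = 0.0148), and mael and qin, genes of the piRNA pathway that silences transposons in the germ line, rose 1.89-fold and 1.59-fold (adjusted p = 0.0139 and 0.0109). The other probe set of qin had a value of −0.02. By its name, the mael probe set can match more than 1 transcript, like that of c(3)G. For zpg the call ended when w1118 array 1 or 3 or knock-out array 2 was left out (adjusted p = 0.0775, 0.0592 and 0.0562; range 0.00216 to 0.0775). That of mael was lost without w1118 array 1 or 3 (0.0514 and 0.0586; range 0.00482 to 0.0586), and that of qin without w1118 array 1 (0.0695; range 0.00184 to 0.0695). Without w1118 array 1 none of the 27 was called, and without w1118 array 3 only 1.

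Other germ cell genes had values below 0. The pole plasm gene gcl differed by −0.31 log2 (adjusted p = 0.137) and the piRNA gene aub by −0.33 (adjusted p = 0.127, but 0.0322 with array weights; range 0.0322 to 0.373); these were picked for mention once their values were known. The helicase gene vas, the usual marker of germ cells and likewise outside the rule for named genes, read 6.09, 6.41 and 6.27 in w1118 and 6.48, 6.43 and 6.45 in the knock-out (log2 0.20, SE 0.09, adjusted p = 0.309). Averaged over the 27 genes, the deviation from the mean of all arrays was −0.11, 0.01 and −0.27 in w1118 and 0.26, 0.09 and 0.01 in the knock-out, so that w1118 array 2 and knock-out array 3 nearly met. Within the numbered pairs the knock-out was higher by 0.37, 0.08 and 0.28. The crossover list gave −0.12, 0.10 and −0.22 against 0.18, 0.11 and −0.06, with overlap between the groups, and differences of 0.29, 0.02 and 0.16 within the pairs. These list means were not tested.

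Within the knock-out, corolla was more even from array to array than zpg and mtrm. Relative to its w1118 mean, zpg was at 2.36, 1.77 and 1.18 on knock-out arrays 1, 2 and 3 and mtrm at 1.88, 0.99 and 0.91. Both were highest on array 1, the one apart in RNA quality, and so were corolla, c(3)G, mael, qin and nenya. Corolla was at 1.99, 1.72 and 1.98, nearly as high on array 3 as on array 1, and c(3)G at 0.64, 0.43 and 0.54. The range over the 3 knock-out arrays was 1.18 for zpg, 0.97 for mtrm, 0.46 for mael and 0.12 for qin, against 0.26 for corolla and 0.21 for c(3)G. Whether these spreads differ was not tested.

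**Figure D4:**
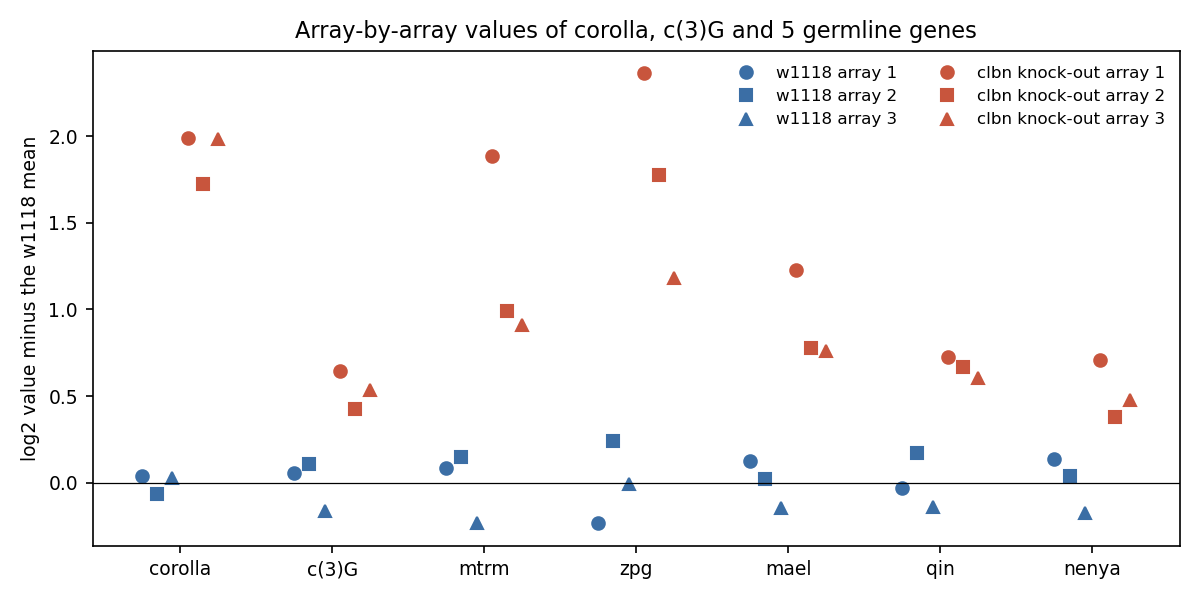
Log2 value minus the gene's w1118 mean on each array for corolla, c(3)G and 5 germline genes, with blue for w1118, red for the knock-out and a shape for each array number. Knock-out array 1 (red circle) is the highest for each gene; corolla reads 1.99 and 1.98 on arrays 1 and 3, while zpg reads 2.36 and 1.18 on them.

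Of the 28 markers of adult organs limma called 0 (1 had an unadjusted p under 0.05), and their median was −0.04. The shares of all genes were 1.88% called higher, 2.63% called lower and 22.8% with an unadjusted p under 0.05. The 2 adult markers of smallest p both had low values. The protamine gene ProtA had a w1118 mean of 3.08 and a knock-out mean of 3.29 (adjusted p = 0.265), and the vitelline membrane gene Vm32E means of 3.59 and 3.41 (adjusted p = 0.311). Of the 20 embryo markers, 1 was called, the muscle gene Mlc2 (log2 −0.60, SE 0.07, adjusted p = 0.00469). The largest difference of that list was that of zen, a homeobox gene of the early dorsal embryo, which read 8.16, 8.67 and 8.06 in w1118 and 7.40, 7.59 and 6.63 in the knock-out. Its arrays did not overlap (log2 −1.09, SE 0.26, adjusted p = 0.0677, but 0.0128 with the replicate block; range 0.0128 to 0.174). With the block the neuronal gene elav was called too (log2 −0.49, adjusted p = 0.0204, against 0.17 without it; range 0.0204 to 0.439), which makes 3 embryo markers called lower. Zen and elav were singled out after their values were seen. The genes called in these lists without the block (mtrm, bol, zpg, mael, qin and Mlc2) lie on chromosome 3, as do 69.9% of the 539 called genes placed on an arm. Of all 11982 genes, called or not, 2344 lie on 3L and 2972 on 3R.

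The genes whose array-by-array pattern was most like that of corolla were not genes of meiosis in the lists. Likeness was the root mean square difference between 2 genes' deviations from their own means over the 6 arrays, and the 6 closest of the 11982 genes lay at 0.13 to 0.23 log2. They were Ugt35A1, which encodes a UDP-glycosyltransferase, CG34437, CG5493, hng3, Rbm13 and Dscam4, with log2 differences of 1.87, 1.76, 2.11, 1.75, 1.60 and 1.56. Ugt35A1 read 6.09, 5.73 and 6.03 in w1118 and 7.98, 7.78 and 7.71 in the knock-out. Rbm13 is the 1 of them on X, at 7.38, 7.57 and 7.35 and then 9.31, 8.91 and 8.89. With 2 separate groups of arrays, this likeness mostly says that these genes had a difference of similar size.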

How the data were processed

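The authors deposited log2 expression values, 1 column per array, for 18769 probe sets and 183 controls. The submitters' processing notes name affy with neither version nor role; for background correction and normalisation, methods were not given in the sources used. The log2 scale was read from the values, and they were used as deposited. Genes were named from the platform annotation: 13647 probe sets have 1 symbol, 402 several and 4720 none, and 13544 were matched by gene ID to RefSeq (Release 6 plus ISO1 MT, used for symbols, arms and gene order). The array's build is not given, so no coordinates are printed. A gene outside the members stands by its probe set with the highest mean.

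Differences (knock-out minus w1118) were fitted with limma 3.58.1 in R 4.3.3 (lmFit, eBayes, no covariate), and p-values were Benjamini-Hochberg adjusted over all probe sets; called means an adjusted p below 0.05. Intervals use the moderated SE. The code was tested on simulated data. Arrays give no counts, and their number limits the precision. The members and lists were chosen with earlier results of these data known. From each list up to 4 called genes of largest difference are named, or the 2 of smallest p where none was called, with the called neighbours of corolla and the 6 genes of most like pattern. Alternatives were other scalings, filters on dim probe sets, array weights, a trended prior, a replicate block and each array left out.

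The labels number arrays 1 to 3 in both genotypes. Deviations from the group means correlated at 0.252, 0.227 and 0.390 between arrays of the same number, and at −0.333 to 0.089 between others. Deviations are taken within each genotype, so positive values between arrays of the same number go with lower ones between others. The numbers were taken as pairing the arrays from the data alone. The main fit leaves this pairing out, and blocked values are given where they change a call. Python 3.11.15 with pandas 2.3.3 and matplotlib 3.10.9 made the tables and plots.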

Additional observations from a re-analysis of the deposited data

How the results depend on the processing

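The log2 difference of corolla stayed between 1.85 and 1.99 over its 13 alternatives, which use the contrast it was chosen by. Leaving out 1 array at a time, 1 to 2 members were called, 0 to 2 of the other meiosis genes, and 190 to 607 of all probe sets, against 2, 2 and 668 with all arrays. Leaving out w1118 array 1 gave the 190, w1118 array 3 gave 256, knock-out array 3 gave 344 and knock-out array 2 gave 357. Array weights, which gave w1118 array 1 a weight of 4.46 and knock-out array 1 one of 0.369, called 1539 probe sets, 4 other meiosis genes, 1 neighbour of corolla, 7 germ cell markers (6 higher and 1 lower, against 3 and 0) and 2 embryo markers. With median centring 3 other meiosis genes (nenya added) and 4 germ cell markers were called. The replicate block called 978 probe sets, 4 other meiosis genes (nenya and Msh6 added), 4 germ cell markers (rhi added) and 3 embryo markers (zen and elav added), and changed no other call of a listed gene or member. The mean of all probe sets per gene, run for the other meiosis genes alone, called 2, and the 5 nearest neighbours of corolla on each side held 0 calls. The cona difference was 0.11 both with median centring, which adds the same amount to every difference, and with array weights, against 0.03. The filter at the first quartile left out mei-P22 and the filter at the median left out cona, ord, mei-P22, mei-W68 and sunn, so they give no value there. Apart from the amount that median centring adds, the causes of these shifts were not tested.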
